A study of Rattus norvegicus with 4 samples.

Results

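The genes described here encode the enzymes of cholesterol and fatty acid synthesis and the proteins that control them. They were chosen by exact match of their symbol to a list of 37 names, a rule that holds no measured value, although the list was drawn up with earlier results of these data known. Of these, 36 occurred among the 22250 genes of the count files and 35 had enough footprints to be tested. Lbr, a sterol reductase of the inner nuclear membrane, did not occur there under this symbol. It has no footprint values here and enters only the counts of promoter motifs. Elovl6, which elongates palmitate, was listed with 0 counts in all 4 libraries. The collagen gene Col1a2 was also listed at 0 in every library, while Col1a1 had 27959 to 50350 counts, so the listing of Elovl6 is given without a limit on its level.

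Ribosome footprints, the stretches of mRNA that ribosomes shield from RNase I, were sequenced from ventricular cardiomyocytes of Wistar rats aged 1 to 2 days, a primary culture of heart muscle cells. The 2 control libraries came from cells given a control siRNA, and the 2 knockdown libraries from cells given an siRNA against Cpeb4 for 72 h. Cpeb4 encodes an RNA-binding protein that acts on poly(A) tails. The cells were isolated with trypsin and a Percoll gradient, and all 4 samples carry the same growth protocol, which also names Torin1, an mTOR inhibitor, at 250 nM for 24 h without saying which cells received it. The labels do not say whether replicates were separate cultures or how many hearts were pooled, and the spread behind every p-value may be that of technical repeats.

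Gene counts summed to between 3554011 and 5910911 per library, and the members took 0.238% to 0.277% of them. The files are named for footprints of 29 to 34 nt, except that of Cpeb4 siRNA replicate 2, which is named for 29 to 33 nt. Cpeb4 had 351 and 253 counts in the controls and 40 and 59 after its siRNA, and it fell by 86.2% (edgeR adjusted p = 1.57e-09). Of 10 cardiomyocyte markers, 9 occurred in the files and all 9 were tested, at a summed 54479 and 59308 CPM in controls and 58830 and 52497 CPM after Cpeb4 siRNA. Myh6 had the largest share of this sum and a log2 fold change of 0.15, while every other tested marker of this list was negative. Their median was -0.10 with Myh6 included, against -0.0031 over all genes tested. Myh7 and Ryr2 lay below both controls in both siRNA libraries, and no cardiomyocyte marker had an edgeR adjusted p under 0.05. CPM are counts scaled to a common library total adjusted by TMM, and footprint levels do not separate mRNA amount from translation, because matched RNA-seq was not used here. Markers of other cells were present as well. The 7 tested of 8 fibroblast markers, with Col1a2 at 0, summed to 13134 and 12247 CPM in controls and to 9703 and 8991 CPM after Cpeb4 siRNA. The 5 macrophage and leukocyte markers summed to 452 and 306 CPM in controls and to 341 and 399 CPM after Cpeb4 siRNA, and the 5 endothelial markers found of 6 to between 115 and 142 CPM. Of 5 adipocyte markers, Adipoq, Plin1, Cidec and Lep had 0 counts in every library, and Cfd had 50 to 105.

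Cholesterol is built from acetyl-CoA through mevalonate, isoprenoids, squalene and lanosterol, and fatty acids are built from the same acetyl-CoA by way of malonyl-CoA. Both routes are under the control of the SREBP transcription factors, which are held in the endoplasmic reticulum by SCAP and the INSIG proteins while sterols are plentiful and are cut and released to the nucleus when sterols fall. Heart muscle burns fatty acids as its main fuel and makes little fat, but its cells use both pathways for membrane lipids.

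After Cpeb4 siRNA 1 of the 35 members tested fell and none rose (edgeR quasi-likelihood test, Benjamini-Hochberg adjusted p under 0.05). The member that fell was Scd2, a stearoyl-CoA desaturase, the enzyme family that puts the first double bond into saturated fatty acids. Of all 11335 genes tested 3.41% were called, 1.87% lower and 1.54% higher, so 1 in 35 is near the share among all genes. Limma-voom also called Scd2 and no other member. DESeq2 called Scd2 alone as well, but gave no adjusted p for 10 of the 35. At an unadjusted edgeR p under 0.05, 7 members were lower and none higher, where 16.1% of all genes passed, 8.76% lower and 7.33% higher. This count was 3 without control replicate 1 (10.2% of all genes), 3 without Cpeb4 siRNA replicate 1 (16.9%) and 2 in DESeq2 (7.76%), all of them lower. The 7 were Scd2, the farnesyl pyrophosphate synthase Fdps, the desaturases Scd and Fads2, and the late sterol enzymes Tm7sf2, Ebp and Msmo1.

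Taken over all 35, with the 7 just named included, the members lay mostly slightly below the controls. The log2 fold change was below 0 for 27 of 35, against 50.5% of all genes tested, and its median was -0.13, against -0.0031 over all genes. Both libraries of Cpeb4 siRNA were below both controls for 15 members, where this held for 22.3% of all genes, and both were above for 2, where it held for 23.1%, or 45.4% in either direction. All 7 members with an unadjusted edgeR p under 0.05 were among those 15. With scaling to the library total alone, 25 members were negative and the median was -0.10, against 0.026 over all genes. The median was -0.21 without Cpeb4 siRNA replicate 2 and -0.080 without Cpeb4 siRNA replicate 1, and the members below both controls, with scaling recomputed on the 3 libraries, were 27 (36.9% of all genes) in the former and 17 (36.3%) in the latter. In bulk libraries fewer cells of a type and less RNA per cell cannot be told apart.

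**Figure D1:**
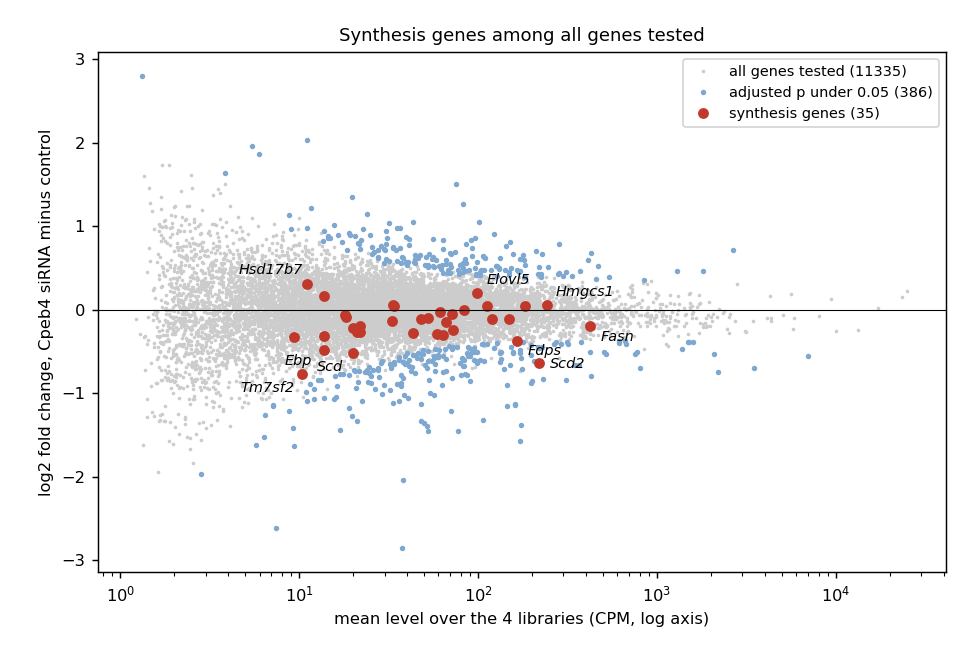
Each point is 1 gene, with its mean level over the 4 libraries in CPM on a log axis against its log2 fold change, Cpeb4 siRNA minus control. The 35 tested synthesis genes (large points) lie among the 11335 genes tested, 27 of them below 0. Scd2 at -0.63 is the only synthesis gene among the 386 called genes.

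Scd2 (ENSRNOG00000046005) stood at 268 and 264 CPM in the controls and at 157 and 185 CPM after Cpeb4 siRNA. Both siRNA libraries lay far below both controls, and the controls were close to each other. Controls averaged 266 ± 2.68 CPM (SD, n = 2), the siRNA libraries 171 ± 19.7 CPM (SD, n = 2). This was a log2 fold change of -0.63 ± 0.11 (SE; edgeR adjusted p = 0.00115), so Scd2 fell by 35.6%. With 1 library left out in turn the log2 fold change lay between -0.76 and -0.52, with edgeR adjusted p between 0.00219 and 0.0163, and it was called in all 12 alternative settings. The summed fibroblast markers were also lower in both siRNA libraries, a sum of which the collagen gene Col1a1 makes up most, at 8634 and 8007 CPM in controls and 6074 and 5277 CPM after siRNA. Col1a1 fell, and of the other 6 tested Col3a1 and Pdgfra were below both controls, while Dcn, Postn, Lum and Tcf21 overlapped them. Of the 7 tested only Tcf21 had a positive log2 fold change, and their median was -0.25, against -0.0031 over all genes tested. Of the adipocyte markers 4 of 5 were listed at 0, and Cfd, a gene of other cells too, was at 18.0 and 14.3 CPM in controls and 10.8 and 10.3 CPM after siRNA (log2 fold change -0.64, not called; edgeR adjusted p = 0.14). The part of these markers in the level of Scd2 was not tested.

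Scd, the paralogue of Scd2, was at 26.9 and 20.05 CPM in the controls and at 16.2 and 17.3 CPM after Cpeb4 siRNA. The groups did not overlap, but the controls differed by more than the siRNA libraries, and with a log2 fold change of -0.51 ± 0.20 (SE) the gene was not called (edgeR adjusted p = 0.18). With 1 library left out it ran from -0.68, without control replicate 2, to -0.26, without control replicate 1. The desaturase genes are alike in sequence, and files of uniquely mapped footprints can lose or split reads between them, so each value is uncertain. Their sum was 295 and 284 CPM in controls and 173 and 202 CPM after Cpeb4 siRNA, lower in both siRNA libraries as well.

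The promoters of Scd2 and Scd and of the sterol genes Fdps and Msmo1 are shown because all 4 genes had an unadjusted edgeR p under 0.05 and stand for both branches of the pathway, with Scd2 and Scd as paralogues. They were chosen after their values were seen. SREBPs bind weakly on their own and act with NF-Y, a factor that binds the CCAAT box, and capitals mark that box, CCAAT, or ATTGG where it lies on the other strand. Each sequence is from RefSeq on build GRCr8 and runs 5′ to 3′ along the gene from 250 bases before its start to 50 after it. The windows are chr1:253118127-253118426 on the plus strand for Scd2, chr1:253231682-253231981 on the minus strand for Scd, chr2:176804767-176805066 on the minus strand for Fdps and chr16:29746863-29747162 on the plus strand for Msmo1.
Scd2: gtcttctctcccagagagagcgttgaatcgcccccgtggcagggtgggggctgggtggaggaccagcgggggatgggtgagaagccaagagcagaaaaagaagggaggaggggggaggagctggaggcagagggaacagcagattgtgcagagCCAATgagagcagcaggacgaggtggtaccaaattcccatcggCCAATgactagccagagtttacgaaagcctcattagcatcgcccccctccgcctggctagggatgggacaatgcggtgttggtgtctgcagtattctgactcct
Scd: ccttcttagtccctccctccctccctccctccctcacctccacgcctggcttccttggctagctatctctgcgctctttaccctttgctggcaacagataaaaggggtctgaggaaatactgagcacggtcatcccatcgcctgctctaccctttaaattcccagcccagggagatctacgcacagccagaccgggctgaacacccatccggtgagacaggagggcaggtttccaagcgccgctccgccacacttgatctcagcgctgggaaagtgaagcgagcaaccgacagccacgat
Fdps: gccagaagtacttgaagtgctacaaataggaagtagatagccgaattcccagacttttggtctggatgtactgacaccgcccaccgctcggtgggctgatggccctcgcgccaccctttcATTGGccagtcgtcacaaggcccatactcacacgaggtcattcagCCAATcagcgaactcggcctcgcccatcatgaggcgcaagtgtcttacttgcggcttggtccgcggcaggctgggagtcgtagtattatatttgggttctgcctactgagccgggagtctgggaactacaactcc
Msmo1: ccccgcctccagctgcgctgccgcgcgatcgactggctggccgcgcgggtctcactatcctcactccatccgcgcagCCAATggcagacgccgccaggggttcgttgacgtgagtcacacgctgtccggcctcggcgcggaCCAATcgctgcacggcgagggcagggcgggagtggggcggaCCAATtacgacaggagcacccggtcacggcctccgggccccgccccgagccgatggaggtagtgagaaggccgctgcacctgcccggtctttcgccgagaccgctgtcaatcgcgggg
Scd2 had 2 boxes, beginning 97 and 54 bases before the start. Fdps had 2, at 130 and 85 bases, Msmo1 had 3, at 173, 109 and 68 bases, and Scd had none in this window. All 4 genes shown were lower after Cpeb4 siRNA. Of the other members lower at an unadjusted edgeR p under 0.05, Tm7sf2 and Ebp each had 2 boxes and Fads2 had 0. The members with the 3 highest log2 fold changes, Hsd17b7, Elovl5 and Mvk, had 3, 2 and 5 boxes.

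RefSeq promoters were matched to 30 of the 37 members. The entries for Pmvk, Fdft1, Sqle, Stard4, Acaca, Fasn and Elovl6 were missing. The NF-Y box (CCAAT, either strand) occurred in 22 of the 30, or 73.3%, against 37.5% of all 33469 promoters of the same length and 37.3% of the promoters of genes tested here. At least 2 boxes occurred in 14 of the 30, or 46.7%, against 11.2% of all promoters and 13.6% of the promoters of genes tested here. The E-box CACGTG, which reads the same on both strands, was found in Insig1, Sc5d, Elovl5 and Scap, or 13.3% of the members. It occurred in 6.42% of all promoters and in 9.20% of the promoters of genes tested here. The classical sterol regulatory element, a sequence that SREBPs bind, was searched on either strand in a strict form only. This form was found in 0 of the 30, in 0.269% of all promoters and in 0.112% of the promoters of genes tested here. Looser variants of the element were not searched, so the 0 does not show that these promoters lack SREBP sites. No motif contains another, and a match or its absence describes only the letters of these windows.

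The regulators were near their control levels. Srebf2, which encodes the SREBP that favours cholesterol genes, was at 152 and 156 CPM in controls and at 133 and 152 CPM after Cpeb4 siRNA, with a log2 fold change of -0.11 ± 0.11 (SE). Srebf1, whose products favour fatty acid genes, was at 52.6 and 55.8 CPM in controls and at 50.3 and 50.5 CPM after siRNA. Both siRNA libraries of Srebf1 were below both controls by a small margin, while those of Srebf2 overlapped them. Scap, the escort of SREBPs to the Golgi, was at 34.0 and 32.9 CPM in controls and at 37.03 and 32.4 CPM after siRNA. Insig2, a retention protein, was at 20.2 and 16.3 CPM in controls and at 17.8 and 17.6 CPM after siRNA. Neither differed between the groups beyond the spread of its libraries. The 95% intervals of the fold change ran from 0.791 to 1.09 for Srebf2, 0.775 to 1.12 for Srebf1, 0.832 to 1.28 for Scap and 0.718 to 1.27 for Insig2. None of the 5 regulators passed (edgeR adjusted p from 0.55 to 0.92; 0 at an unadjusted p under 0.05, and 0 in limma-voom and in DESeq2, which gave no adjusted p for Insig1 and Insig2). Insig1, the retention protein that is itself a target of SREBP, had the lowest log2 fold change of the 5, -0.31 ± 0.23 (SE), and is described with the differences between libraries.

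Of the 8 genes of the mevalonate and isoprenoid steps, 6 had a negative log2 fold change and the median was -0.24. Fdps, which makes farnesyl pyrophosphate for sterols and prenyl groups, stood at 193 and 180 CPM in controls and at 134 and 154 CPM after Cpeb4 siRNA. The groups did not overlap. Its log2 fold change was -0.37 ± 0.11 (SE), the smallest p among members after Scd2, and it missed the threshold (edgeR adjusted p = 0.0675). Over the 12 alternatives its log2 fold change ran from -0.48 to -0.28, and it passed the threshold in 3. These were edgeR with no low-count filter (adjusted p = 0.0365), without Cpeb4 siRNA replicate 2, and with a crossed pairing of replicates. The crossed pairing was chosen after seeing the data. Hmgcs1, which makes HMG-CoA ahead of the mevalonate step, was at 235 and 238 CPM in controls and at 235 and 258 CPM after siRNA. The groups overlapped, and the 95% interval of its fold change was 0.898 to 1.21. Mvk, mevalonate kinase, had one of the 3 highest log2 fold changes, 0.17 ± 0.23 (SE), with 13.0 and 12.6 CPM in controls and 17.0 and 12.1 CPM after siRNA. Its value came from the first siRNA library alone, and without that library the log2 fold change was -0.080. The thiolase Acat2, the kinase Pmvk, the decarboxylase Mvd, the isomerase Idi1 and the geranylgeranyl pyrophosphate synthase Ggps1 had log2 fold changes between -0.28 and -0.08.

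The 3 genes that join farnesyl groups to squalene and close it to lanosterol had log2 fold changes between -0.13 and -0.11, and none was called. Sqle, squalene epoxidase, a rate-limiting step of the late pathway, was at 56.4 and 43.0 CPM in controls and at 35.4 and 57.1 CPM after Cpeb4 siRNA. The highest and the lowest of its 4 values were thus both siRNA libraries. Its log2 fold change of -0.11 ± 0.18 (SE) turned to 0.12 without control replicate 1 and to 0.18 without Cpeb4 siRNA replicate 1. Fdft1, squalene synthase, and Lss, lanosterol synthase, were not called either (edgeR adjusted p = 0.67 and 0.76).

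Of the 8 genes tested between lanosterol and cholesterol, 5 had a negative log2 fold change, 3 of them with an unadjusted edgeR p under 0.05, and none was called. Msmo1, the sterol C4-methyl oxidase, was at 64.6 and 64.4 CPM in controls and at 48.3 and 57.3 CPM after Cpeb4 siRNA, a log2 fold change of -0.29 ± 0.13 (SE; edgeR adjusted p = 0.28). Ebp, the sterol isomerase, was at 16.3 and 15.8 CPM in controls and at 11.3 and 11.6 CPM after siRNA, a log2 fold change of -0.49 ± 0.22 (SE; edgeR adjusted p = 0.27). For both genes the siRNA libraries were below both controls. Tm7sf2, a sterol C14-reductase, had the lowest log2 fold change of the members, -0.77 ± 0.31 (SE; edgeR adjusted p = 0.21), but its 2 controls were at 8.57 and 18.0 CPM, against 7.37 and 7.47 CPM after siRNA. Its distance rested on control replicate 2, which stood apart: without that library the log2 fold change was -0.21 (edgeR adjusted p = 0.91), and without control replicate 1 it was -1.28 (edgeR adjusted p = 0.0167). Hsd17b7, a sterol ketoreductase, had the highest log2 fold change of all members, 0.31 ± 0.24 (SE; edgeR adjusted p = 0.58), with 9.60 and 10.3 CPM in controls and 11.0 and 13.5 CPM after siRNA. Dhcr7, which ends the pathway by making cholesterol, was at 32.9 CPM in both controls and at 30.1 and 37.9 CPM after siRNA, on either side of them. Cyp51, Nsdhl and Sc5d, which demethylate, decarboxylate and desaturate the sterol ring system, had log2 fold changes between -0.19 and 0.05. Stard4, a carrier of sterols between membranes, had 11.1 and 9.45 CPM in controls and 9.003 and 7.64 CPM after siRNA and was not called (edgeR adjusted p = 0.59).

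**Figure D2:**
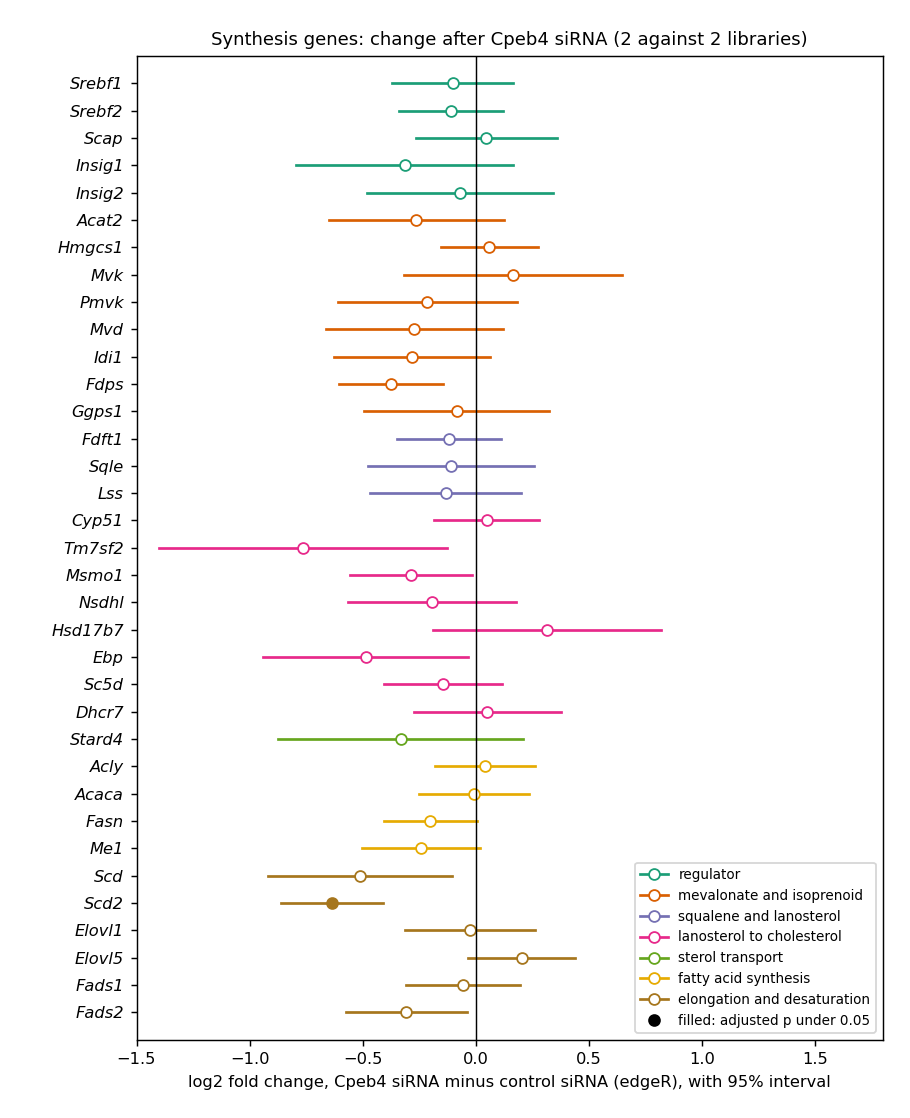
Points give the log2 fold change of each of the 35 tested members, Cpeb4 siRNA minus control, with its 95% interval from the edgeR fit, coloured by role. Only Scd2, the filled point at -0.63, had an adjusted p under 0.05. The intervals of Fdps, Tm7sf2, Msmo1, Ebp, Scd and Fads2 also lie below 0, with no adjustment over genes.

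The 4 genes of fatty acid synthesis proper were not called. Fasn, fatty acid synthase, was at 442 and 460 CPM in controls and at 385 and 400 CPM after Cpeb4 siRNA. The groups did not overlap, and the log2 fold change was -0.20 ± 0.10 (SE; edgeR adjusted p = 0.33). Acaca, acetyl-CoA carboxylase, which makes malonyl-CoA, was at 82.8 and 84.8 CPM in controls and at 78.6 and 87.9 CPM after siRNA, around the same mean. Its 95% interval of the fold change was 0.84 to 1.18, and its sign turned with the scaling. Acly, which supplies cytosolic acetyl-CoA, had a log2 fold change of 0.04 ± 0.11 (SE), and the malic enzyme Me1, a source of NADPH, one of -0.24 ± 0.13 (SE; edgeR adjusted p = 0.36).

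Of the 6 elongases and desaturases tested 5 had a negative log2 fold change, and the median was -0.18. Fads2, the delta-6 desaturase, was at 73.7 and 67.6 CPM in controls and at 52.4 and 62.0 CPM after Cpeb4 siRNA, a log2 fold change of -0.31 ± 0.13 (SE; edgeR adjusted p = 0.23). Its partner Fads1, the delta-5 desaturase, was at 74.9 and 69.9 CPM in controls and at 66.7 and 72.9 CPM after siRNA. The groups did not overlap for Fads2 and overlapped for Fads1, and the difference between these genes was not tested. Elovl5, which elongates polyunsaturated fatty acids, was at 89.2 and 95.1 CPM in controls and at 103 and 109 CPM after siRNA. It was 1 of 2 members whose siRNA libraries were both above the controls, with Hsd17b7, and it was not called (log2 fold change 0.20 ± 0.11, SE; edgeR adjusted p = 0.40). Elovl1, an elongase of very long chains, was at 58.6 and 65.0 CPM in controls and at 52.2 and 68.3 CPM after siRNA, with its extremes both in the siRNA group. Summed over the 6 tested genes of this step the level was 591 and 582 CPM in controls and 447 and 514 CPM after siRNA, a sum in which Scd2 has the largest share.

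**Figure D3:**
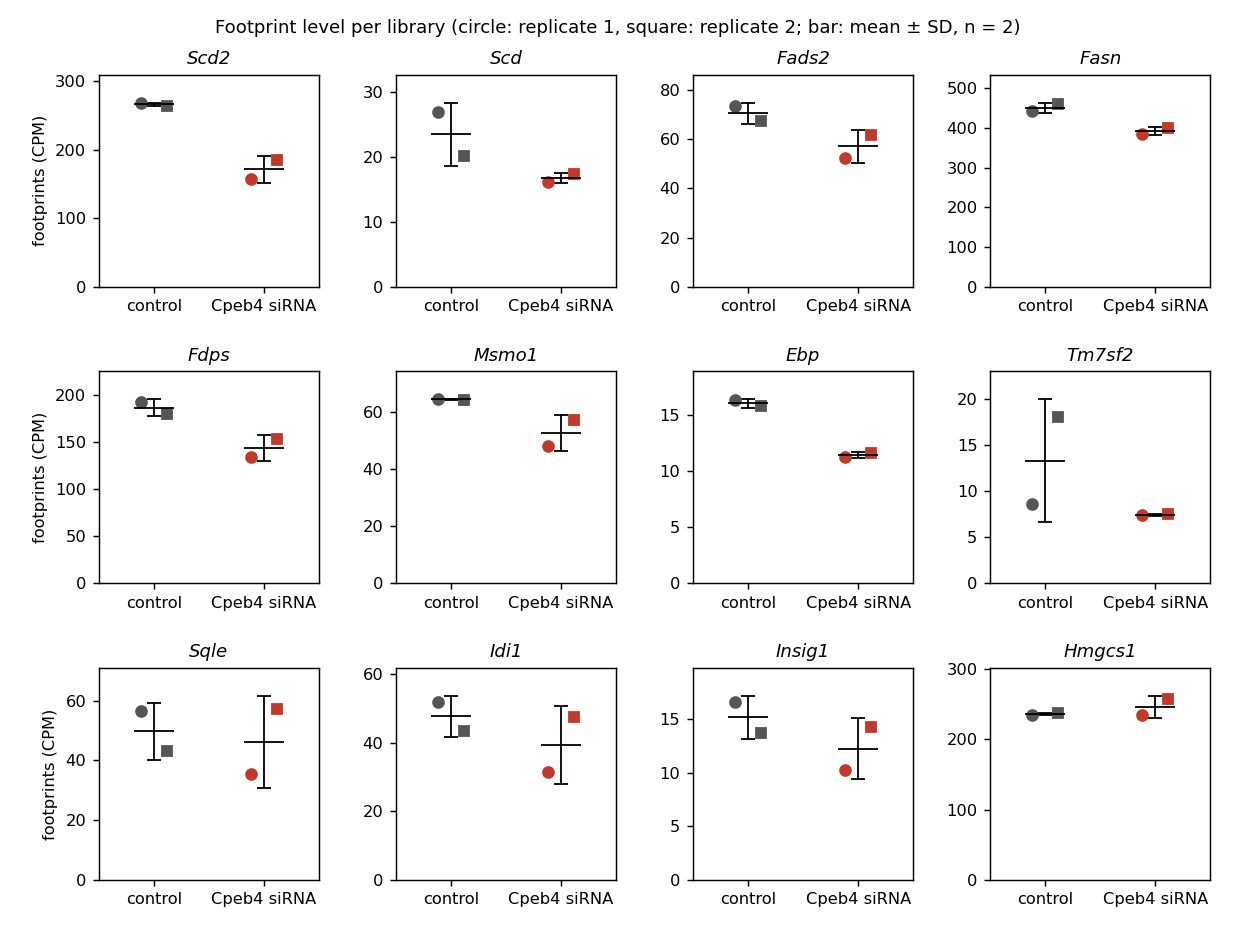
Footprint level in CPM of 12 members in each library, with circles for replicate 1, squares for replicate 2 and the mean ± SD (n = 2) as bars, on axes that start at 0. Scd2 falls from 266 to 171 CPM with groups well apart, while in Sqle, Idi1 and Insig1 the first siRNA library lies below both controls and the second does not.

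The 2 siRNA libraries differed from each other in the same direction for most members. The level was higher in Cpeb4 siRNA replicate 2 than in replicate 1 for 28 of 35, against 50.1% of all genes tested, and it was so for all 8 genes tested between lanosterol and cholesterol, all 4 of fatty acid synthesis and all 6 elongases and desaturases. It was so for 5 of 8 mevalonate and isoprenoid genes, 2 of the 3 of squalene and lanosterol, 3 of the 5 regulators, and not for Stard4. The total was 28 with RLE scaling and 29 with the library total alone. The first siRNA library was below both controls for 28 members, where 36.9% of all genes were, and the second for 17, where 36.7% of all genes were. Against the control mean the median member stood at -0.21 on the log2 scale in the first and at -0.08 in the second. Of the controls, replicate 1 was the higher for 20 of 35 members, against 49.8% of all genes, and both orders held at once for 15, against 26% of all genes. With RLE scaling these counts were 18 and 13, and with the library total alone 23 and 19.

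The widest gap between the siRNA libraries was that of Sqle, 1.61-fold. Idi1, isopentenyl diphosphate isomerase, followed at 1.51-fold, with 52.0 and 43.5 CPM in controls and 31.3 and 47.3 CPM after siRNA. Insig1 was at 16.6 and 13.7 CPM in controls and at 10.2 and 14.3 CPM after siRNA, a ratio of 1.40 between the siRNA libraries. Mvk had a gap about as wide as that of Insig1 in the other direction, with a ratio of replicate 2 to replicate 1 of 0.714. In Sqle, Idi1 and Insig1 control replicate 1 was also above control replicate 2, by 1.31-fold, 1.19-fold and 1.21-fold. Fdps and Scd2, by contrast, differed 1.14-fold and 1.18-fold between siRNA libraries and lay below the controls in both. The summed macrophage and leukocyte markers and the summed endothelial markers had the same order as Sqle within each group. They were higher in control replicate 1 and in Cpeb4 siRNA replicate 2. The fibroblast genes Dcn, Postn and Lum had this order too, but the summed fibroblast markers did not, at 9703 and 8991 CPM in the siRNA pair. The macrophage genes Csf1r and Cd163, the endothelial genes Cdh5 and Kdr and the collagens Col1a1 and Col3a1 had the other order in the siRNA pair. The fibroblast genes Pdgfra and Tcf21 and the endothelial gene Vwf had the other order in the controls. The summed cardiomyocyte markers had the reverse of the order of Sqle in both groups. They were at 54479 and 59308 CPM in controls and at 58830 and 52497 CPM after siRNA. Myh6, Tnnt2, Tnni3, Actn2, Ryr2, Pln and Mybpc3 each had this reverse order in both groups. Myh7 had it only in the siRNA pair and Nppa only in the controls. The second siRNA library is also the one with the narrower length window. The part of any of these in the gap was not tested.

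**Figure D4:**
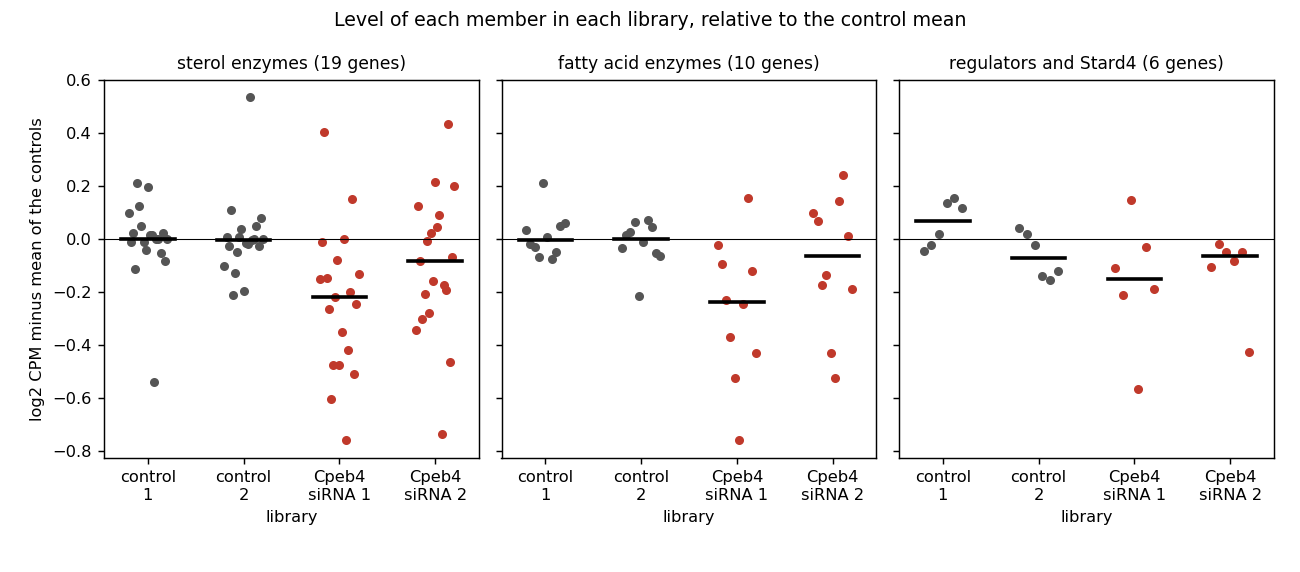
Each point is 1 member in 1 library, as log2 CPM minus its mean over the 2 controls, for sterol enzymes, fatty acid enzymes, and regulators with Stard4, with horizontal bars at the medians. Over all 35 members the median was -0.21 in Cpeb4 siRNA replicate 1 and -0.08 in replicate 2.

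Precision limits what can be said of the members that were not called. The standard error of the log2 fold change had a median of 0.15, and the 95% interval of the fold change lay within 1.5-fold in either direction for 22 of 35 members and within 2-fold for 34. The exception to the second was Tm7sf2. The lowest count of a tested member in any library was 33, for Stard4 in control replicate 2.

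Neighbouring pathways were read from 5 lists of 84 genes, of which 79 were tested, and 2 of these rose and none fell (edgeR; 9 were higher and 9 lower at an unadjusted p under 0.05). Of all genes 1.54% were called higher and 1.87% lower, and 7.33% and 8.76% at the unadjusted threshold, so these counts are near the shares among all genes. Limma-voom also called 2 higher and 0 lower, as did DESeq2, which gave no adjusted p for 17. Osbp, the oxysterol-binding protein that exchanges cholesterol for a phosphoinositide between endoplasmic reticulum and Golgi, was at 111 and 104 CPM in controls and at 155 and 151 CPM after Cpeb4 siRNA. It rose 1.42-fold (log2 fold change 0.50 ± 0.11, SE; edgeR adjusted p = 0.0100), in both siRNA libraries. Hacd1, a muscle-enriched dehydratase of very long chain fatty acid elongation, was at 102 and 107 CPM in controls and at 143 and 156 CPM after siRNA. It rose 1.44-fold (log2 fold change 0.52 ± 0.11, SE; edgeR adjusted p = 0.0087). Osbp lost its call when either control was left out (edgeR adjusted p = 0.053 without replicate 1, 0.115 without replicate 2). Hacd1 lost it without control replicate 1 (edgeR adjusted p = 0.129) and without Cpeb4 siRNA replicate 2 (edgeR adjusted p = 0.062).

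The list of cholesterol uptake, transport, storage and efflux, which holds Osbp, had 19 tested members, 10 of them negative, and a median of -0.02, a value whose sign depends on the setting: over the alternatives it ran from -0.02 to 0.087. The list of other fatty acid synthesis and elongation genes, which holds Hacd1, had 18 tested members, 9 of them negative, and a median of 0.02. Fatty acid activation and glycerolipid synthesis had 18 tested members, 6 of them negative, and a median of 0.06, and its smallest p was that of the phosphatidate phosphatase Lpin3 (log2 fold change -1.02 ± 0.37, SE; edgeR adjusted p = 0.15). The 12 genes that process or degrade SREBP and its partners had a median of -0.10, and none of them passed (edgeR; 0 higher and 2 lower at an unadjusted p under 0.05). The 12 genes of isoprenoid use had a median of -0.09, with the smallest p for Pdss1, a subunit of the enzyme that builds the ubiquinone side chain (-0.49 ± 0.19, SE; edgeR adjusted p = 0.20).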

How the data were processed

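The submitters' processing notes name HTSeq 0.12, STAR 2.7, Bowtie2 and the build Rnor_6.0. They give neither the tools' roles nor a strand setting. The deposited files hold raw counts of footprints per Ensembl gene, 1 file per library. Totals and tests exclude the 5 HTSeq summary rows. The no-feature row held 4.42% to 4.63% of each library.

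Counts were tested over all genes with edgeR 4.0.16 in R 4.3.3 (quasi-likelihood F-test, TMM, filterByExpr with a minimum count of 10, group as the only term, two-sided, Benjamini-Hochberg over 11335 genes). Standard errors and 95% intervals were derived from the F statistic. The workflow was tested on simulated counts. No replicate pair was alike within counting noise (chi-square over its degrees of freedom 3.00 for controls, 5.32 for siRNA libraries).

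Alternatives were RLE and library-total scaling, DESeq2 1.42.0, limma-voom (limma 3.58.1), no filter, a filter of 30 counts in 2 libraries, a replicate block, and each library left out. A crossed replicate block, chosen after seeing the data, is counted with them among the 12. The members and lists were chosen with earlier results of these data known. Values per library are given for members that were called or had an unadjusted p under 0.05, regulators, first and last enzymes of branches, paralogues and the 3 highest and 3 lowest; of the related lists, for called genes, with the smallest p per list, except 1 list whose gene is not reported here. Idi1 and Stard4 were added after their values were seen. Levels were not compared between genes, as no coding lengths were used here.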

Additional observations from a re-analysis of the deposited data

How the results depend on the processing

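Scd2 and Cpeb4 kept their direction and their call in all 12 alternatives, Scd2 with log2 fold changes from -0.76 to -0.52, and no member was called higher in any of them. The number of members called lower was 2 with no low-count filter, where Fdps joined Scd2 (edgeR adjusted p = 0.0365). Leaving out 1 library gave 1 to 2 members lower. These were Scd2 with Tm7sf2 without control replicate 1, and Scd2 with Fdps without Cpeb4 siRNA replicate 2. Such fits take the remaining library of a group of 1 to vary as the other group does. The median log2 fold change of the members then ran from -0.21 to -0.080, members with both groups apart from 3 to 11 higher and from 17 to 27 lower (35.6% to 38% of all genes higher and 35.3% to 36.9% lower in the same fits), and related genes called from 0 to 3 higher and from 0 to 1 lower. Without the low-count filter 1 related gene was called lower.

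Signs turned only in members that were not called. With the library total alone Acaca stood at 0.023 and Elovl1 at 0.0055. With each library left out in turn, log2 fold changes ran over both signs for Scap (-0.046 to 0.14), Insig2 (-0.19 to 0.12), Hmgcs1 (-0.0080 to 0.13), Sqle (-0.51 to 0.18), Dhcr7 (-0.13 to 0.21), Acaca (-0.091 to 0.074), Fads1 (-0.12 to 0.0090), Elovl1 (-0.24 to 0.15) and Mvk (-0.080 to 0.40). The cause was not tested.

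Over all genes 386 were called, against 192 in DESeq2, 606 with no low-count filter, and 212 without control replicate 1. With the replicate number as a block 403 were called, among them 1 member, and the median of the members was -0.15. The block changed no call of a named gene. Deviations of same-numbered libraries correlated at -0.11 across 11335 genes. A crossed pairing, chosen after seeing the data, gave 481 calls and 2 members lower.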

Other observations

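Receptors and stores of lipid were split between higher and lower values, and none of them passed. These genes were chosen after their values were seen, from the related lists, as 5 of the 18 with an unadjusted edgeR p under 0.05. The lipoprotein receptor Vldlr averaged 147 ± 6.82 CPM in controls and 179 ± 4.44 CPM after Cpeb4 siRNA (each ± SD, n = 2, here and for the other four; edgeR adjusted p = 0.16), and the lysosomal acid lipase Lipa at 105 ± 6.80 and 132 ± 18.4 CPM (edgeR adjusted p = 0.15). Acsl1, the main acyl-CoA synthetase of heart, was at 270.2 ± 18.9 and 330 ± 33.0 CPM (edgeR adjusted p = 0.16). The HDL receptor Scarb1 was at 66.6 ± 3.83 CPM in controls and 48.9 ± 8.90 CPM after siRNA (edgeR adjusted p = 0.0844), and the receptor Lrp1 at 425 ± 22.7 and 347 ± 9.32 CPM (edgeR adjusted p = 0.11).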
